A study of Homo sapiens with 6 samples.

Results

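The genes described here are 32 members of the cholesterol and fatty acid synthesis program that the SREBP transcription factors control, chosen by name from the enzymes and regulators of both pathways and not by their values. Earlier results of these data were known when they were chosen. All 32 had a row among the 20263 genes of the count table, and all 32 passed the filter on low counts that left 13444 genes to test. RNA sequencing was done in HCCLM3, an established human hepatocellular carcinoma line grown with serum. Cells received CC-885 for 24 h (3 libraries) or the solvent DMSO (3 libraries). The sources used here give no dose. CC-885 binds cereblon, the receptor subunit of a ubiquitin ligase, and redirects that ligase to proteins such as the translation termination factor GSPT1. The study asked what CC-885 does in liver cancer cells, and its title names the Golgi protein GOLM1 as a protein degraded under it.

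SREBP-2, from SREBF2, mainly drives cholesterol synthesis and SREBP-1, from SREBF1, mainly fatty acid synthesis. Both are made as precursors in the membrane of the endoplasmic reticulum and are carried to the Golgi by the escort protein SCAP when sterols are low, where proteases release the active factor. When sterols are plentiful the INSIG proteins hold SCAP back. Liver is a main site of both pathways in the body, and tumour cells use them to build membranes.

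Total counts ran from 30432509 to 39809131 under CC-885 and from 32952518 to 37574380 under DMSO. The libraries separated by treatment, since log2 values correlated at 0.980 or more inside each group and at 0.956 or less across groups. Whether the 3 libraries of a group are separate cultures is not in the labels, so p-values reflect variation among the libraries at hand, and that variation may be technical only. Of 14 liver markers 7 were at 0 in every library, among them ALB, AFP, GPC3, FOXA2, APOA2 and FGA, and a count of 0 allows up to 0.0999 CPM (3 counts in the smallest library, counting error only). CPM are counts scaled to library size, here with TMM normalisation. The keratins KRT8 and KRT18 made up most of that list, whose sum was 1364 to 1658 CPM under CC-885 and 1809 to 2214 CPM under DMSO, and 2 of its 4 tested genes were lower. Transcripts of the secreted liver proteins ALB, AFP, APOA2 and FGA were thus not detected in these cells, labelled as liver cancer. TF, FGB and FGG of the same list had 9, 12 and 4 counts in all. HNF4A averaged 0.214 CPM under CC-885 and 1.25 CPM under DMSO and was lower (log2 fold change -2.50, adjusted p = 0.00156). FOXA1 averaged 2.80 CPM under CC-885 and 2.54 CPM under DMSO and was not called (adjusted p = 0.603). Markers of leukocytes summed to 2.94 to 4.33 CPM under CC-885 and 3.89 to 4.58 CPM under DMSO, with PTPRC, CD3E and LYZ at 0. Endothelial markers summed to 3.11 to 4.93 CPM under CC-885 and 0.872 to 1.35 CPM under DMSO. Both tested genes of that list, VWF and CDH5, were higher, while KDR was at 0 and PECAM1 had 6 counts, all under DMSO. Fibroblast markers summed to 151 to 185 CPM under CC-885 and 157 to 187 CPM under DMSO. LUM was at 0, COL1A2 had 2 counts in all, and the 3 tested genes of that list changed in opposite directions. COL1A1 was higher (log2 fold change 0.58, adjusted p = 0.00327), while PDGFRB averaged 14.1 CPM under CC-885 and 70.9 CPM under DMSO (-2.33, adjusted p = 8.63e-07) and DCN was lower (-3.23). The part of these markers in the results below was not tested, and in bulk RNA fewer cells of a type and less RNA per cell cannot be told apart.

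With CC-885, 5 of the 32 members were higher and 5 were lower (adjusted p below 0.05, edgeR quasi-likelihood test, adjusted over all tested genes). The higher ones were HMGCS1, MVD, IDI1, CYP51A1 and MSMO1, all enzymes of cholesterol synthesis. The lower ones were the phosphomevalonate kinase PMVK, 3 regulators of SREBP (INSIG2, SREBF1 and SCAP) and the fatty acid enzyme ACACA. Of all tested genes 52.6% were called, 25.8% higher and 26.8% lower, so the 10 called members are a smaller share than the background. The median log2 fold change was 0.02 for the members and -0.04 for all tested genes, and the median size without sign was 0.24 for the members and 0.50 for all tested genes. Without CC-885 library 3 or DMSO library 1 only 3 members were called higher (3 lower without the first and 2 without the second), and without CC-885 library 2 only 2 were called lower. The share of all tested genes called fell too, to 43.7, 42.8 and 42.8% without these libraries in turn. Every CC-885 library lay above every DMSO library for 6 members and below for 8, where 29.9% and 31.2% of all tested genes did so. Together the members took 0.840, 0.758 and 0.744% of all counts under CC-885 and 0.882, 0.749 and 0.810% under DMSO.

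**Figure D1:**
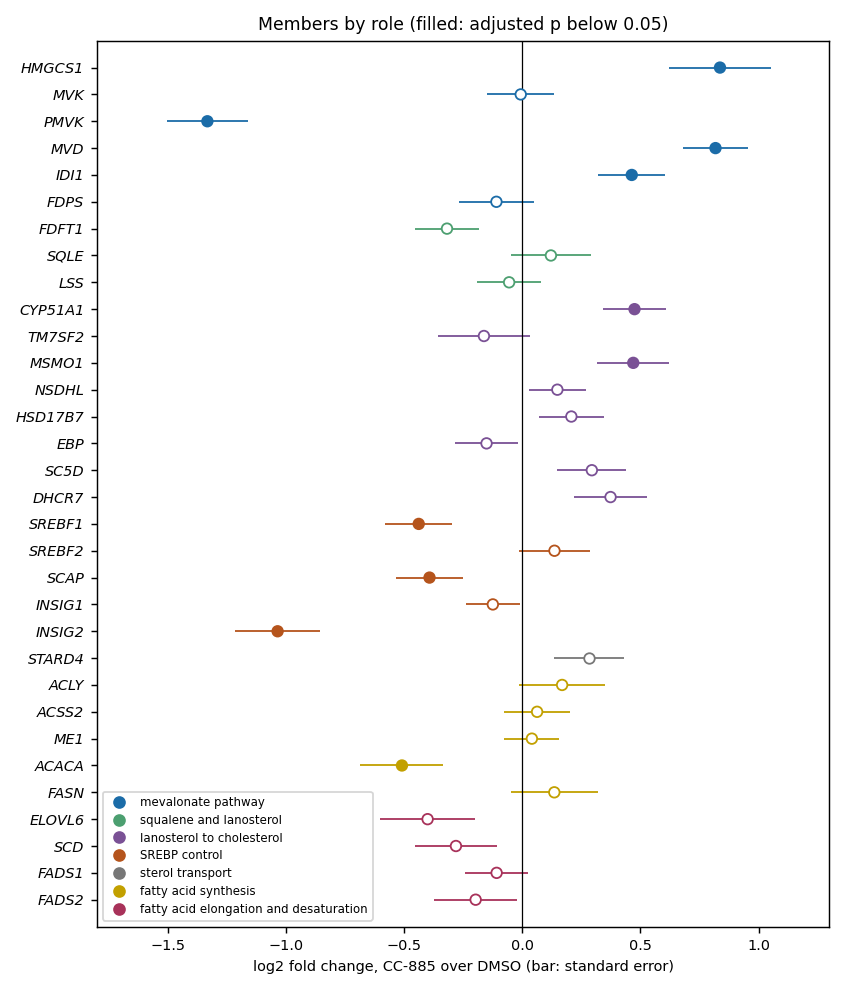
The log2 fold change of each of the 32 members, CC-885 over DMSO, is plotted on the horizontal axis with its standard error as a bar. Colours mark roles and filled points mark an adjusted p below 0.05; HMGCS1 (0.84) and MVD (0.82) lie farthest to the right and PMVK (-1.33) and INSIG2 (-1.04) farthest to the left.

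The mevalonate pathway, which turns acetyl-CoA into farnesyl diphosphate, held 4 of the 10 called members among its 6 enzymes. That is 66.7% of the 6, where 52.6% of all tested genes were called. HMGCS1, the cytosolic HMG-CoA synthase that opens the pathway, had 658, 439 and 468 CPM in the CC-885 libraries, against 351, 312 and 212 CPM in the DMSO libraries. Both groups were spread widely and did not overlap. The means were 521 ± 119 CPM under CC-885 and 292 ± 71.6 CPM under DMSO (SD, n = 3 each), a log2 fold change of 0.84 (SE 0.21, adjusted p = 0.00772). The call was lost without DMSO library 2, where the log2 fold change was 0.90 (adjusted p = 0.0595).

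MVD, the decarboxylase that makes isopentenyl diphosphate, had 165, 169 and 132 CPM under CC-885, against 95.2, 86.0 and 82.9 CPM under DMSO. Its lowest CC-885 library lay well above its highest DMSO library. Its log2 fold change was 0.82 (SE 0.14, adjusted p = 0.000537). IDI1, the isomerase of the next step, had 188, 185 and 208 CPM under CC-885, against 134, 164 and 123 CPM under DMSO. Its groups did not overlap, and the log2 fold change was 0.46 (SE 0.14, adjusted p = 0.0174). The IDI1 call was lost without CC-885 library 3 (adjusted p = 0.0657) or DMSO library 1 (adjusted p = 0.0722).

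PMVK, the kinase that acts between MVK and MVD, went the other way. It had 21.3, 18.2 and 15.6 CPM under CC-885, against 53.4, 48.5 and 36.9 CPM under DMSO, with no overlap. Its log2 fold change was -1.33 (SE 0.17, adjusted p = 8.7e-05), the largest change among the 32 members. Among the members PMVK is also the shortest, at 1280 nucleotides for its longest annotated transcript. MVK, the kinase just before it, averaged 48.1 ± 7.14 CPM under CC-885 and 48.3 ± 4.2 CPM under DMSO and was not called (log2 fold change -0.01, adjusted p = 0.974). FDPS, which joins the isoprene units to farnesyl diphosphate, averaged 386 ± 34.1 CPM under CC-885 and 417 ± 67.3 CPM under DMSO (log2 fold change -0.11, adjusted p = 0.579). FDPS has 8 annotated pseudogenes, and the handling of reads shared with them is not stated.

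**Figure D2:**
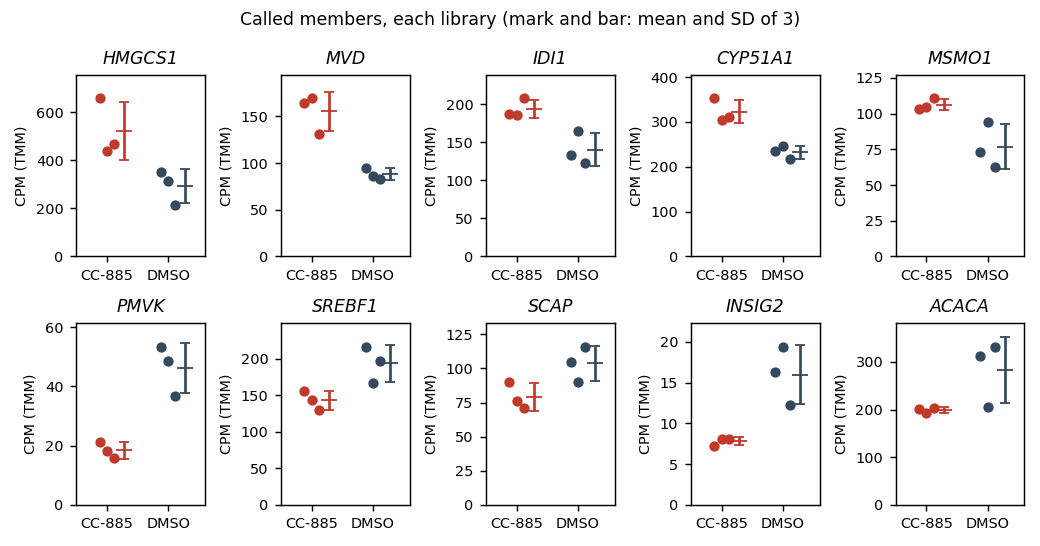
TMM-normalised CPM of the 10 called members is plotted for each library, CC-885 left and DMSO right, with the mean and SD of 3 libraries beside the points. The 5 higher members fill the upper row and the 5 lower members the lower row, and for SCAP and ACACA the groups nearly touch.

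The next steps join farnesyl diphosphate to squalene and close the ring to lanosterol, and none of their 3 enzymes was called. FDFT1, squalene synthase, had 346, 365 and 349 CPM under CC-885, against 425, 492 and 404 CPM under DMSO. Its groups did not overlap, but the log2 fold change of -0.32 (SE 0.14) missed the threshold with an adjusted p of 0.0702. SQLE, the epoxidase, averaged 178 ± 9.67 CPM under CC-885 and 164 ± 37.3 CPM under DMSO (log2 fold change 0.12, adjusted p = 0.565). LSS, the cyclase, averaged 195 ± 14.7 CPM under CC-885 and 202 ± 21.3 CPM under DMSO (log2 fold change -0.06, adjusted p = 0.748).

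Of 8 enzymes from lanosterol to cholesterol 2 were higher (25%) and 0 lower, where 25.8% of all tested genes were higher and 26.8% lower. CYP51A1, the lanosterol demethylase, had 353, 305 and 311 CPM under CC-885, against 234, 245 and 217 CPM under DMSO, with no overlap. The log2 fold change was 0.48 (SE 0.13, adjusted p = 0.0105), and the call was lost without CC-885 library 1 (adjusted p = 0.0588). CYP51A1 has 3 annotated pseudogenes and shares exon sequence with other annotated genes on both strands, so its count is less certain.

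MSMO1, the C4-methylsterol oxidase, had 104, 105 and 111 CPM under CC-885, against 73.4, 94.0 and 62.9 CPM under DMSO. The CC-885 libraries were close together and the DMSO libraries spread. The log2 fold change was 0.47 (SE 0.15, adjusted p = 0.0218). This call was lost with library size as the only scaling (adjusted p = 0.0571), and without CC-885 library 3 (0.0700), DMSO library 1 (0.0771) or DMSO library 3 (0.0636). DHCR7, the final reductase, had 199, 190.0 and 172 CPM under CC-885, against 160.1, 113 and 159.6 CPM under DMSO. These did not overlap, and the log2 fold change of 0.37 (SE 0.16) missed the threshold with an adjusted p of 0.0627.

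The other 5 enzymes of this stretch were not called. SC5D, the lathosterol desaturase, had a log2 fold change of 0.29 (adjusted p = 0.109), HSD17B7, a 3-ketosteroid reductase with 2 annotated pseudogenes, 0.21 (adjusted p = 0.228), and NSDHL, a C4 decarboxylase, 0.15 (adjusted p = 0.323). EBP, the sterol isomerase, had -0.15 (adjusted p = 0.362) and TM7SF2, a sterol reductase, -0.16 (adjusted p = 0.504). TM7SF2 shares exon sequence with VPS51 on the same strand. Across all 17 enzymes of cholesterol synthesis 5 were higher and 1 lower (median log2 fold change 0.15). The higher share, 29.4%, was near the 25.8% of all tested genes, and the lower share, 5.88%, was below the 26.8%. STARD4, which carries sterols between membranes, averaged 81.2 ± 4.73 CPM under CC-885 and 66.7 ± 12.8 CPM under DMSO (log2 fold change 0.28, adjusted p = 0.13). It was called without DMSO library 2 (0.45, adjusted p = 0.00995), as was SC5D (0.44, adjusted p = 0.0149).

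Of the 5 genes that control SREBP, 3 were lower (60%) and 0 higher, where 26.8% of all tested genes were lower and 25.8% higher. INSIG2, which holds SCAP in the endoplasmic reticulum, had 7.26, 8.08 and 8.05 CPM under CC-885, against 16.2, 19.4 and 12.3 CPM under DMSO. The groups did not overlap, and the log2 fold change was -1.04 (SE 0.18, adjusted p = 0.000658). Its relative INSIG1, itself a known SREBP target, had 73.7, 70.3 and 74.7 CPM under CC-885, against 77.2, 81.1 and 80.1 CPM under DMSO. The INSIG1 groups were tight and did not overlap, yet the log2 fold change of -0.12 (SE 0.11) was not called (adjusted p = 0.379).

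SREBF1 had 156, 144 and 129 CPM under CC-885, against 217, 167 and 197 CPM under DMSO. No library overlapped, and the log2 fold change was -0.44 (SE 0.14, adjusted p = 0.0221). The call was lost without CC-885 library 2 (adjusted p = 0.0728), CC-885 library 3 (0.0962) or DMSO library 1 (0.105). SREBF1 shares exon sequence with RAI1 on the opposite strand. SREBF2 had 369, 363 and 318 CPM under CC-885, against 342, 262 and 350.1 CPM under DMSO. Its groups overlapped (log2 fold change 0.14, SE 0.15, adjusted p = 0.473).

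SCAP had 90.17, 76.2 and 70.6 CPM under CC-885, against 105, 90.21 and 116 CPM under DMSO. CC-885 library 1 and DMSO library 2 were almost equal. The log2 fold change was -0.39 (SE 0.14, adjusted p = 0.0365). This call was lost without CC-885 library 2 (adjusted p = 0.125), CC-885 library 3 (0.142), DMSO library 1 (0.0876) or DMSO library 3 (0.0887).

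Ratios of 2 genes within a library depend little on its scaling, and 4 pairs were compared with an exact two-sided permutation test over libraries. With 3 against 3 this test cannot go below 0.1, so no pair could pass 0.05. The log2 ratio of INSIG1 over INSIG2 was 3.26, 3.04 and 3.14 under CC-885, against 2.21, 2.03 and 2.65 under DMSO. The difference was 0.84 (exact permutation p = 0.1, adjusted over the 4 pairs 0.133), with every CC-885 library above every DMSO library. The log2 ratio of SREBF1 over SREBF2 was -1.24, -1.33 and -1.29 under CC-885, against -0.66, -0.65 and -0.83 under DMSO, a difference of -0.58 (exact permutation p = 0.1, adjusted 0.133). These groups did not overlap. These ratios use CPM, not CPM per length, so their size does not compare the amounts of the 2 mRNAs.

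Fatty acid synthesis, from citrate and acetate to palmitate, gave 1 lower gene (20%) and 0 higher among 5. Of all tested genes 26.8% were lower and 25.8% higher. ACLY, which splits citrate to acetyl-CoA, had 634, 589 and 524 CPM under CC-885, against 592, 386 and 576 CPM under DMSO. The groups overlapped (log2 fold change 0.17, SE 0.18, adjusted p = 0.452). ACACA, the carboxylase that makes malonyl-CoA, had 201, 192 and 204 CPM under CC-885, against 312, 205 and 332 CPM under DMSO. DMSO library 2 sat at the level of the CC-885 libraries and DMSO libraries 1 and 3 far above. Its log2 fold change was -0.51 (SE 0.18, adjusted p = 0.0294). Leaving out any library but DMSO library 2 ended this call, with an adjusted p between 0.0591 (without DMSO library 3) and 0.102 (without DMSO library 1).

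FASN, the fatty acid synthase, had 1031, 954 and 864 CPM under CC-885, against 956, 643 and 995 CPM under DMSO. The groups overlapped and the gene was not called (log2 fold change 0.14, SE 0.18, adjusted p = 0.558). ACSS2, which makes acetyl-CoA from acetate, averaged 124 ± 6.19 CPM under CC-885 and 118 ± 18.6 CPM under DMSO (log2 fold change 0.06, adjusted p = 0.725). ME1, malic enzyme, a source of NADPH, averaged 104 ± 3.11 CPM under CC-885 and 101 ± 4.05 CPM under DMSO (log2 fold change 0.04, adjusted p = 0.783).

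None of the 4 enzymes that lengthen or desaturate fatty acids was called, and all 4 fold changes were negative. SCD, the stearoyl-CoA desaturase, had 1865, 1682 and 1713 CPM under CC-885, against 2376, 1711 and 2302 CPM under DMSO. The groups overlapped through DMSO library 2 (log2 fold change -0.28, SE 0.17, adjusted p = 0.197). Without that library SCD was called lower (-0.41, adjusted p = 0.00913). ELOVL6, the elongase of palmitate, averaged 5.93 ± 1.54 CPM under CC-885 and 7.83 ± 0.826 CPM under DMSO (log2 fold change -0.40, adjusted p = 0.112), and it was called without CC-885 library 3 (-0.62, adjusted p = 0.0267). FADS1 had a log2 fold change of -0.11 (adjusted p = 0.511) and FADS2 one of -0.20 (adjusted p = 0.368). These desaturases of polyunsaturated fatty acids are neighbours that share exon sequence on opposite strands. The log2 ratio of FADS1 over FADS2 differed by 0.08 between CC-885 and DMSO (exact permutation p = 0.8).

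The log2 ratio of SCD over FASN was 0.85, 0.82 and 0.99 under CC-885, against 1.31, 1.41 and 1.21 under DMSO, a difference of -0.43 (exact permutation p = 0.1, adjusted 0.133). The groups did not overlap, DMSO library 2 included. SCD has 1 annotated pseudogene.

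Per kilobase of the longest annotated transcript, SCD was the most abundant member, at 327 CPM per kb under CC-885 and 397 CPM per kb under DMSO. FDPS followed (192 and 207 CPM per kb), and HMGCS1 came next under CC-885 (149 CPM per kb) but stood at 83.2 CPM per kb under DMSO. INSIG1 had 24.2 CPM per kb under CC-885 and 26.4 CPM per kb under DMSO, while INSIG2 had 2.45 and 5.02 CPM per kb. The lowest member was ELOVL6, at 0.919 CPM per kb under CC-885 and 1.21 CPM per kb under DMSO. The isoforms present are not known from gene counts, so these lengths are approximate.

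**Figure D3:**
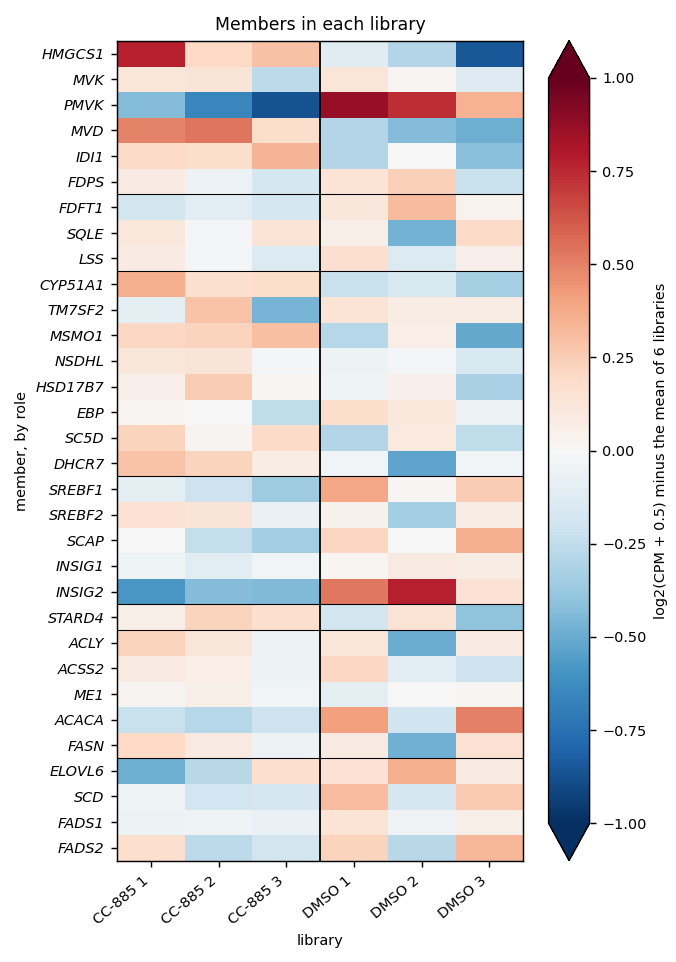
Each cell gives log2(CPM + 0.5) of a member minus its mean over the 6 libraries, in red above the mean and blue below it, with the CC-885 libraries left and the DMSO libraries right. HMGCS1, MVD, PMVK and INSIG2 show the strongest contrast between groups, and DMSO library 2 is blue for ACLY, FASN, SQLE and DHCR7.

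Within the DMSO group the 2 arms varied differently. DMSO library 2 was the lowest DMSO library for 6 of the 9 fatty acid enzymes, whose summed CPM was 4485, 4155 and 4022.5 under CC-885, against 5061.5, 3666 and 4982 under DMSO. DMSO library 3 was the lowest DMSO library for 13 of the 17 cholesterol enzymes, whose summed CPM was 3260.15, 2944 and 2848 under CC-885, against 2768, 2732.5 and 2394 under DMSO. The cholesterol sums did not overlap between groups, as was so in this direction for 29.9% of single tested genes, while the fatty acid sums overlapped. SCD (mean 1753 CPM under CC-885 and 2130 CPM under DMSO) and FASN (950 and 864 CPM) weighed most in the fatty acid sums. Fatty acid sums without SCD and FASN were not compared. Without HMGCS1 the cholesterol sums were 2603, 2505 and 2380.0 CPM under CC-885, against 2417, 2421 and 2182 CPM under DMSO, and these overlapped. The cause of the spread among DMSO libraries was not tested.

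Promoter sequence was read for 29 of the 32 members from RefSeq (GRCh38.p14), and FDFT1, SQLE and FASN had no entry used here. Only the first entry of each gene was used, so other promoters of a gene were not searched. SREBPs bind sterol regulatory elements and act with NF-Y, a factor that binds the CCAAT box. Exact letters were searched on both strands from 250 bases before to 50 bases after the start. A CCAAT box (CCAAT, or ATTGG on the other strand) stood in 18 of 29 members (62.1%) and in 36.6% of 10698 promoters of tested genes. A GC box (GGGCGG) stood in 27 of 29 members (93.1%) and 69.5% of those promoters. An E-box (CACGTG) stood in 4 members (13.8%) and 10.2%. The SRE-like letters TCACNCCAC stood in 1 member, SREBF2, and in 1.12% of promoters. Motifs of different kinds did not overlap in the members, but 2 CCAAT boxes in NSDHL overlapped, as did GC boxes in SREBF2, INSIG1 and ACACA.

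Among called members the CCAAT box was found in 3 of 5 higher genes (HMGCS1, MVD and MSMO1) and in 0 of 5 lower genes, and among the 19 others with a promoter in 15. The higher genes IDI1 and CYP51A1 lack it. The GC box stood in 5 of 5 higher and 5 of 5 lower genes and in 17 of the 19. An E-box stood in 0 higher and 1 lower gene (SCAP) and in 3 of the 19. A match describes letters only. The 250 bases before the start are printed for the 3 higher genes with the box, for SREBF2 with the SRE-like match, and for the lower genes with the largest change, PMVK and INSIG2, which lack both. They lie at chr5:43313413-43313662 (HMGCS1, minus strand), chr16:88663092-88663341 (MVD, minus), chr4:165327419-165327668 (MSMO1, plus), chr22:41832855-41833104 (SREBF2, plus), chr1:154936720-154936969 (PMVK, minus) and chr2:118088221-118088470 (INSIG2, plus). Each reads 5′ to 3′ on the strand of its gene, and capitals mark the CCAAT box on either strand and the SRE-like letters.
HMGCS1: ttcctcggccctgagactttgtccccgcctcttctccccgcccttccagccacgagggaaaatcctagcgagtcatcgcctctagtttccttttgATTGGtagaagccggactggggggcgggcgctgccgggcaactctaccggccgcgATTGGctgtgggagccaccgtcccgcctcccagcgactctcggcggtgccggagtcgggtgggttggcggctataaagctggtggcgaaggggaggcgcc
MVD: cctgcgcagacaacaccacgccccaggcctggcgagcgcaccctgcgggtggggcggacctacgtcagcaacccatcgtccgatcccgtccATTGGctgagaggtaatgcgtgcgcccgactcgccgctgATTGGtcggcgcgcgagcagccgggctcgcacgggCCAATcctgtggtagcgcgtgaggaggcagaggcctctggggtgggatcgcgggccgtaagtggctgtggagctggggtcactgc
MSMO1: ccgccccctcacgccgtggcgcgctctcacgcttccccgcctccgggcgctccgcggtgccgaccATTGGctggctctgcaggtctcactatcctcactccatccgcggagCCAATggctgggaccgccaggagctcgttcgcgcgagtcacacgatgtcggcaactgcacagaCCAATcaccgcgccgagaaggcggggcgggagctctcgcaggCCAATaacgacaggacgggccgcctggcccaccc
SREBF2: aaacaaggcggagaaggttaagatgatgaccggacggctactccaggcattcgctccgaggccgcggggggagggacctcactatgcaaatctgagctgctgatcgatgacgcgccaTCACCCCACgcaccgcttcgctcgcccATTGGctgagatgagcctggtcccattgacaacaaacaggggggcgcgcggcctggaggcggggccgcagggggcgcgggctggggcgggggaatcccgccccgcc
PMVK: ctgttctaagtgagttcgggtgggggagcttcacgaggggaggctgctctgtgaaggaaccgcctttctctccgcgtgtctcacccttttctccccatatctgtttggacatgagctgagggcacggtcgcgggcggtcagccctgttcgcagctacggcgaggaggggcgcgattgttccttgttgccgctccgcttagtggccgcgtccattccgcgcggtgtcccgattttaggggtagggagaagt
INSIG2: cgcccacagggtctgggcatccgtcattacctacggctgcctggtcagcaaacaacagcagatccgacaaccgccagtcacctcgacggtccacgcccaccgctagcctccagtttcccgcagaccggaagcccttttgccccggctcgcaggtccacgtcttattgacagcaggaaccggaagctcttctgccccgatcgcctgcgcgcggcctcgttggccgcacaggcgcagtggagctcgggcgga
HMGCS1 holds the reverse letters ATTGG at -155 and -100 from the start, MVD holds 3 boxes and MSMO1 holds 4. SREBF2, which was not called, holds its SRE-like match at -133 and 1 CCAAT box at -106.

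Genes beside the 2 pathways were counted in 9 further lists, and each gene named from them as higher or lower passed the test. Fatty acid oxidation, which burns what lipogenesis builds, had 13 of 22 tested genes lower and 0 higher (median log2 fold change -0.53), where 26.8% of all tested genes were lower. PDK4, a kinase that shuts pyruvate out of the citrate cycle, averaged 39.3 ± 4.34 CPM under CC-885 and 141 ± 9.86 CPM under DMSO (log2 fold change -1.85, SE 0.13, adjusted p = 1.96e-06). SLC25A20, the carnitine carrier of mitochondria, averaged 8.68 ± 1.36 CPM under CC-885 and 24.8 ± 5.41 CPM under DMSO (-1.51, SE 0.19).

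Genes of acetyl-CoA and citrate supply had 6 of 14 lower (42.9%) and 0 higher (median -0.37). Of all tested genes 26.8% were lower and 25.8% higher. ACAT1, the mitochondrial thiolase, averaged 108 ± 7.38 CPM under CC-885 and 247 ± 44.3 CPM under DMSO (log2 fold change -1.19, SE 0.15). IDH2, the mitochondrial NADP-dependent isocitrate dehydrogenase, was lower too (-1.25, SE 0.14). In the list of LXR, the oxysterol receptors that induce SREBF1, and their targets, 6 of 10 were lower (60%) and 1 higher (10%). The cholesterol exporter ABCA1 averaged 0.475 ± 0.231 CPM under CC-885 and 2.81 ± 0.308 CPM under DMSO (log2 fold change -2.58, SE 0.34). Between the receptors, LXR alpha (NR1H3) was lower (-0.63) and LXR beta (NR1H2) higher (0.62). NR1H3 shares exon sequence with ACP2 on the opposite strand.

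**Figure D4:**
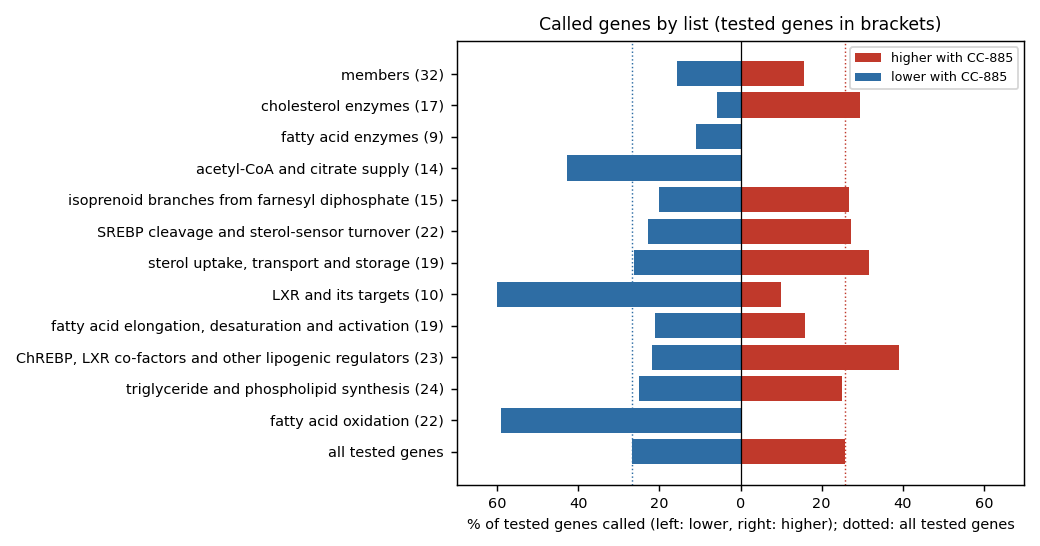
Bars give the percentage of tested genes in each list called higher (right) or lower (left) under CC-885, with the number tested in brackets and all tested genes in the lowest row and as dotted lines. Fatty acid oxidation (13 of 22) and the LXR list (6 of 10) reach farthest to the lower side, and the fatty acid enzymes had 1 of 9 called.

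Genes for SREBP cleavage and for turnover of the sterol sensors had 6 of 22 higher (27.3%) and 5 lower (22.7%), close to the 25.8% and 26.8% of all tested genes. The COPII coat subunits SEC24B (log2 fold change 1.20, SE 0.13) and SEC24A (1.13, SE 0.13), which load cargo leaving the endoplasmic reticulum, were higher. The site-2 protease MBTPS2, which cuts SREBP in the Golgi, was lower (-0.71, SE 0.13), as was ERLIN2 (-0.93, SE 0.13), a membrane protein of sterol-dependent degradation. Sterol uptake, transport and storage had 6 of 19 higher (31.6%) and 5 lower (26.3%). SOAT1, which esterifies cholesterol for storage, averaged 99.1 ± 5.73 CPM under CC-885 and 229.6 ± 49.7 CPM under DMSO (-1.21, SE 0.16), and LIPA, the lysosomal esterase, was lower (-1.07). NCEH1, a cholesteryl ester hydrolase, was higher (0.76), as was the sterol transfer protein gene GRAMD1B (0.71).

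The branches that use farnesyl diphosphate for isoprenoids had 4 of 15 higher (26.7%) and 3 lower (20%), where the count of higher genes was 1 without CC-885 library 3 or DMSO library 1 and 2 without CC-885 library 2. In that list ICMT, which methylates prenylated proteins, was lower (-1.04), as was FNTB, a farnesyltransferase subunit (-0.66). RABGGTB (0.62) and PDSS1 (0.50), enzymes of Rab prenylation and of the coenzyme Q side chain, were higher. The call of PDSS1 was lost without CC-885 library 3 (adjusted p = 0.0647) or DMSO library 1 (0.0842). Other genes of fatty acid elongation, desaturation and activation had 3 of 19 higher (15.8%) and 4 lower (21.1%), both below the shares over all tested genes. The higher ones were led by the elongase ELOVL7 (1.06) and the acyl-CoA synthetase ACSL4 (0.86). Among the 4 lower (2 without CC-885 library 2, CC-885 library 3 or DMSO library 1) were the acyl-CoA synthetases ACSL5 (-1.26) and ACSL1 (-0.59). Regulators of lipogenesis had 9 of 23 higher (39.1%) and 5 lower (21.7%), where 25.8% and 26.8% of all tested genes were. The AMP-activated kinase subunits PRKAB1 (1.39) and PRKAA2 (0.99), parts of a kinase known to inhibit ACACA, were higher, and PPARGC1B (-0.72) and USF1 (-0.54) were lower. Triglyceride and phospholipid synthesis had 6 of 24 higher and 6 lower, 25.0% each and near the share over all tested genes, with PISD (1.51), the mitochondrial phosphatidylserine decarboxylase, and GPAT3 (0.77) higher and DGAT2 (-0.79) and GPAT4 (-0.44) lower. There 3 were higher without CC-885 library 1, CC-885 library 3 or DMSO library 1, and 3, 1, 1 and 2 were lower without CC-885 libraries 1, 2 and 3 and DMSO library 1 in turn. The GPAT4 call was lost without CC-885 library 2 (adjusted p = 0.0502), CC-885 library 3 (0.0585) or DMSO library 1 (0.06). RABGGTB, FNTB, MBTPS2, ACSL4 and PISD share exons with a same-strand gene, and PISD, ACAT1, ICMT, PDSS1, SEC24A, SEC24B, ERLIN2, LIPA, ACSL5, PRKAB1, DGAT2 and GPAT4 with one on the opposite strand.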

How the data were processed

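Libraries of HCCLM3 mRNA were made with a Hieff NGS MaxUp kit, per the labels. The deposited table holds raw counts per gene, without normalization, as its values show, and for the authors' aligner, counting program, strand setting and annotation the sources used here say nothing. Builds named in the submitters' processing notes are those of mouse (GRCm38, mm10), although all row identifiers are human Ensembl genes. Low counts were mostly even (68.7% of counts from 1 to 9), so a fragment may have been counted more than once. Symbols came from a table of gene names (20148 rows) or GENCODE 29 (76 rows), which also gave transcript lengths and overlaps.

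Counts were fitted with edgeR 4.0.16 in R 4.3.3 (TMM, filterByExpr with a minimum count of 10, robust quasi-likelihood test, CC-885 over DMSO, no covariate), checked beforehand on simulated counts. P-values were adjusted by Benjamini-Hochberg over 13444 genes and called below 0.05. SE was taken as the size of the log2 fold change divided by the root of the F statistic. Pair ratios used log2(CPM + 0.5). The members and lists were chosen with earlier results of these data known. All members are named, and from each further list up to 2 higher and 2 lower called genes with the smallest p and a mean of at least 1 CPM in a group. No replicate pair was alike within counting noise (lowest chi-square per degree of freedom 23.8). Alternatives were DESeq2 1.42.0 size factors or Wald test, library size only, limma-voom (limma 3.58.1), 2 other filters, a replicate block, GC and length offsets, and each library left out. Halved counts and the cholesterol sum without HMGCS1 were added after seeing the data. Reads in exon sequence shared with a gene on the opposite strand cannot be assigned to either gene, since the strand setting is not given. How much of each gene is shared is not given here. Among the members this concerns HMGCS1, MVK, IDI1, FDPS, FDFT1, LSS, CYP51A1, SREBF1, SREBF2, STARD4, ACLY, FADS1 and FADS2. FADS1 and FADS2 also share exon sequence with a gene on their own strand.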

Additional observations from a re-analysis of the deposited data

How the results depend on the processing

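No called member changed sign under any of the 15 alternatives, and PMVK, MVD and INSIG2 were called under all of them. Of the 22 members not called, 9 changed sign under some alternative and 15 were called under none. Leaving out 1 library (1 replicate of a group) gave 3 to 6 members higher and 2 to 6 lower, against 5 and 5 with all libraries, and fewest of both together (5) without DMSO replicate 1. Calls over all tested genes moved too. Their share was 46.0, 42.8 and 43.7% without CC-885 replicates 1, 2 and 3 in turn, against 52.6% with all libraries. Without DMSO replicates 1, 2 and 3 it was 42.8, 52.5 and 53.6%. Offsets for GC content and transcript length gave 7 higher and 7 lower, adding NSDHL (0.33) and DHCR7 (0.56) as higher and ELOVL6 (-0.61) and SCD (-0.37) as lower. With these offsets 57.1% of all tested genes were called. The Wald test of DESeq2 also called DHCR7 (adjusted p = 0.0407), as did leaving out DMSO replicate 3 (0.0237). FDFT1 was called lower with library size only (adjusted p = 0.0369), with the CPM filter (0.0334) and without DMSO replicate 3 (0.0388). The members' median log2 fold change lay between -0.05 and 0.10, and its sign changed among them.

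Fatty acid oxidation had 10 to 15 genes lower and 0 higher across the alternatives, and 9 of the 13 genes lower with all libraries were lower under each of them. Higher genes in triglyceride and phospholipid synthesis numbered 3, against 6, with library size only or the CPM filter, and those of the isoprenoid branches 2, against 4, with library size only. With GC and length offsets acetyl-CoA supply had 1 higher gene, against 0, and the LXR list 2, against 1. Acetyl-CoA supply also had 1 with the replicate block and without DMSO replicate 2 or DMSO replicate 3. Without 1 library the counts fell as low as 1 of 4 (isoprenoid branches, higher), 2 of 4 (fatty acid elongation, desaturation and activation, lower), and 3 of 6 higher and 1 of 6 lower (triglyceride and phospholipid synthesis). The FADS1 over FADS2 difference ranged from -0.0395 (without DMSO replicate 3) to 0.216 (without DMSO replicate 2), and was -0.0130 without CC-885 replicate 2, with 1 library left out.

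The labels do not say what the replicate numbers mark, so the numbers were not taken as pairs. Same-numbered libraries deviated together with correlations of 0.16, 0.04 and 0.10. Libraries with different numbers were not compared in this way, so these values do not decide whether there are pairs. With the replicate block 5 members were higher and 5 lower, and 54.1% of all tested genes were called, against 52.6% without it. Depth was ample for the members, of which ELOVL6 had the fewest counts (1459 in all).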
